A study of Mus musculus with 6 samples.

Results

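Complex I (NADH:ubiquinone oxidoreductase) was examined through 30 array probes, each annotated to 1 gene whose symbol joins Nduf to a subunit letter or assembly tag and a number (Ndufa, Ndufb, Ndufc, Ndufs, Ndufv, Ndufab or Ndufaf). The 30 probes stand for 30 genes, out of 33012 probes on the array, of which 14411 carried a single gene symbol. Expression was measured in single mouse oocytes, 1 oocyte per array. The mutant cells were 3 Ago2-deficient mature oocytes from females carrying floxed Ago2 alleles and the Zp3-Cre transgene (Ago2F/F, Zp3-Cre). The control cells were 3 wild-type germinal vesicle (GV) oocytes from adult females. GV oocytes are held before the resumption of meiosis, whereas mature oocytes have resumed it. Zp3-Cre acts in growing oocytes, so the deletion is confined to the germ cell and begins only during its growth. The labels place the GV oocytes in the oviduct and name hyaluronidase for stripping their cumulus cells, and the series gives GV cells as its controls. For ovulated oocytes the methods name adult females as the source too. The number of animals behind each group is not given, so p-values measure the spread between these 6 oocytes. Genotype and stage changed together and cannot be told apart in any value below.

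Complex I takes electrons from NADH, passes them along a chain of iron-sulfur clusters to coenzyme Q and pumps protons across the inner mitochondrial membrane. Its N module binds NADH, its Q module reduces coenzyme Q, and its membrane arm carries the proton pumps, which are encoded by mitochondrial DNA and surrounded by accessory subunits of nuclear origin. Mouse oocytes hold many mitochondria and rely on oxidation of pyruvate, while assembly of complex I needs dedicated factors that do not stay in the finished enzyme.

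Levels are quantile-normalized log2 signals, and a probe was called detected on an array at a signal-to-noise score of at least 3. A probe was tested if detected on all 3 arrays of a group, and was called where limma gave an adjusted p under 0.05 and the fold change exceeded 2. Differences are Ago2-deficient minus GV on the log2 scale, with the standard error (SE) of the fit. Levels are compared between groups for 1 probe at a time and not between probes, except in the contrast within arrays that is described as such.

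Fewer probes of any kind were detected in Ago2-deficient oocytes, at 13.99% to 20.6% of all probes, against 32.3% to 34.3% in GV oocytes. Before scaling, the median signal of probes not detected was 199 ± 47.0 on Ago2-deficient arrays and 77.2 ± 6.25 on GV arrays (SD, n = 3 each). All 12 oocyte markers on the array were detected in every GV oocyte, and 8 or 9 of them in each Ago2-deficient oocyte. On the quantile-normalized scale 10 of these 12 were called lower and 0 higher, at a median difference of -2.57. Among all tested probes 44.8% were called lower and 17.3% higher, at a median of -1.39. Of 16 cumulus and granulosa cell markers, 2 to 5 were detected per Ago2-deficient oocyte and 4 to 6 per GV oocyte, and their summed quantile-normalized signal, turned back from log2, was 14844 to 40766 in Ago2-deficient and 5110.2 to 7691 in GV oocytes. Has2, Tnfaip6, Fshr and Amh were detected on no array, while Btc and Ereg passed in every Ago2-deficient oocyte and in no GV oocyte. Of the 5 cumulus and granulosa markers tested, these 2 were called higher, and Inha (-2.68), Hsd17b1 (-2.46) and Nr5a2 (-3.54), all detected in every GV oocyte, were called lower. Of 10 markers of other ovarian and blood cells, 1 or 2 were detected per oocyte in either group, with summed signals of 5298 to 7196 in Ago2-deficient and 1471 to 2200.1 in GV oocytes. The 2 that were tested were called higher, Dcn (4.13, detected in every Ago2-deficient and no GV oocyte) and Col1a2 (1.68). The part of these cells in the results was not tested. The Ago2 probe itself gave 6.67, 6.49 and 6.94 in Ago2-deficient oocytes and 7.88, 6.25 and 6.93 in GV oocytes. Only 1 GV oocyte passed the detection limit, so the probe could not check the labels.

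The start regions of 4 members are shown because these genes stand at opposite ends of the result, Ndufa3 and Ndufa13 being called higher and Ndufv1 and Ndufb7 called lower in Ago2-deficient oocytes. Each stretch runs 5′ to 3′ on the gene's strand, from 120 bases before the RefSeq start site to 30 after it, in build GRCm38.p6, and capitals mark a match to any of the motifs searched. Ndufa3 lies at chr7:3617253-3617402 on the plus strand, Ndufa13 at chr8:69901991-69902140 on the minus strand, Ndufv1 at chr19:4012726-4012875 on the minus strand and Ndufb7 at chr8:83566638-83566787 on the plus strand.
Ndufa3: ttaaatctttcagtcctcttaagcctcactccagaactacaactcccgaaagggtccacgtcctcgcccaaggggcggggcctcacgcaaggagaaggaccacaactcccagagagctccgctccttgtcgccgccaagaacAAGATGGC
Ndufa13: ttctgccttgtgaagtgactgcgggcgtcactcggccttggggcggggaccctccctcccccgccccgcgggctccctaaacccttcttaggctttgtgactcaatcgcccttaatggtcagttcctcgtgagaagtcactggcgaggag
Ndufv1: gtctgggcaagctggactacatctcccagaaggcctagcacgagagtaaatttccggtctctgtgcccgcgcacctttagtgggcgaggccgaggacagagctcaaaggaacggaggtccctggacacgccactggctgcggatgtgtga
Ndufb7: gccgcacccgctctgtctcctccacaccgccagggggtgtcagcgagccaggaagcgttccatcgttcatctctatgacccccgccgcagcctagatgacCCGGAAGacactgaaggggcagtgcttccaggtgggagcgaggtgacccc
The motifs were those of 3 activators of nuclear genes for mitochondrial proteins, searched on both strands without merging overlaps: NRF1 as GCGCA and GCGC with any base (N) between them, the ETS family (GABPA) as CCGGAAG and YY1 as AAGATGGC. RefSeq windows of 250 bases before to 50 after the start were at hand for 27 of the 30 genes, and Ndufa2, Ndufb9 and Ndufs1 are named only. The NRF1 letters were found in 7 of the 27 genes, against 4.60% of all such windows, the ETS letters in 4 against 8.86%, and the YY1 letters in 6 against 2.75%. At least 1 motif was present in 1 of 4 members called higher, in 7 of the 14 called lower that have a window, and in 5 of 5 tested but not called. The median GC content was 57.8% for the member windows and 52.7% for all windows. These matches describe letters in a window and are not binding sites.

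Fewer complex I genes were detected on every Ago2-deficient array than on any GV array, as were fewer probes of any kind. The number of detected members was 9, 13 and 13 of 30 in Ago2-deficient oocytes (30%, 43.3% and 43.3%) and 28, 28 and 26 of 30 in GV oocytes (93.3%, 93.3% and 86.7%). The means were 11.7 ± 2.31 members in Ago2-deficient and 27.3 ± 1.15 in GV oocytes (SD, n = 3 each). An exact two-sided permutation test over the arrays gave p = 0.1, the smallest that 3 against 3 arrays allow. All probes detected numbered 6026 ± 1220 in Ago2-deficient and 10890 ± 385 in GV oocytes (SD, n = 3 each). The same permutation test gave p = 0.1 for them too. In all, 26 members were detected in every GV oocyte. Of these 26, 9 were also detected in every Ago2-deficient oocyte (34.6%, against 32.4% of the 7765 probes detected in every GV oocyte), and 12 in none of them (46.2%, against 34.1%). No member was detected in every Ago2-deficient oocyte while missing from a GV oocyte. Ndufaf1 and Ndufaf5 were detected on no array, and Ndufs8 and Ndufc2 in 2 GV oocytes only.

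**Figure D1:**
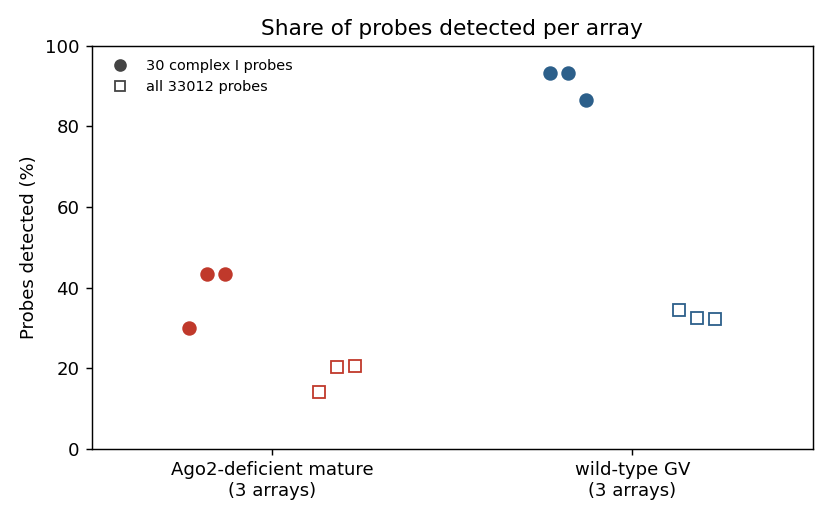
Share of probes detected (percent, y axis) on each array, with the Ago2-deficient mature oocytes left and the wild-type GV oocytes right. Circles are the 30 complex I probes and open squares all 33012 probes, 1 point per array; for both sets every Ago2-deficient array lies below every GV array.

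In total 26 members were tested, and on the quantile-normalized scale 4 rose in Ago2-deficient oocytes, 17 fell and 5 were not called, whereas none was called higher with unscaled arrays or a common median. These are 15.4% higher and 65.4% lower, where among all 8018 probes tested 17.3% were called higher and 44.8% lower, 62.2% in either direction. The members' median difference was -2.50 and that of all tested probes -1.39. The groups did not overlap for 5 members that were higher and 18 that were lower, where the shares of all tested probes were 20.1% and 50.3%, or 70.4% in all. Since 12 tested members were seen in no Ago2-deficient oocyte and 5 in only some, those passed through the GV oocytes alone, in which they are high, and their count is a description. All 4 members that rose belong to the proximal part of the membrane arm, where Ndufa8 fell. All called members of the N module, the Q module, the distal membrane arm and the assembly factors fell.
The number called higher rests on the scaling between arrays, with 0 higher and 20 lower when arrays were left unscaled, 0 higher and 23 lower when arrays were scaled to a common median, 6 and 14 with cyclic loess, and 3 and 12 when arrays were centred on the probes detected on all 6 of them. Of all tested probes, 7.7% were called higher and 60.3% lower unscaled, and 3.97% and 78.6% with a common median. These shares were 24.6% and 31.7% with cyclic loess, and 20.1% and 31.2% after the centring. Of the 17 that fell, 6 were no longer called after this centring (Ndufa9, Ndufa12, Ndufaf4, Ndufb3, Ndufb9 and Ndufb11) and 3 after cyclic loess (Ndufa9, Ndufaf4 and Ndufb5), all with the sign kept. Centring left a difference of -0.092 for Ndufb3, -0.53 for Ndufb11, -0.61 for Ndufb9, -0.92 for Ndufa12, -1.47 for Ndufaf4 and -1.95 for Ndufa9, and cyclic loess left -0.32 for Ndufaf4, -0.82 for Ndufb5 and -0.95 for Ndufa9. The median of all tested probes lay at -1.97, -3.07, -0.36 and -0.42 in the same settings.

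**Figure D2:**
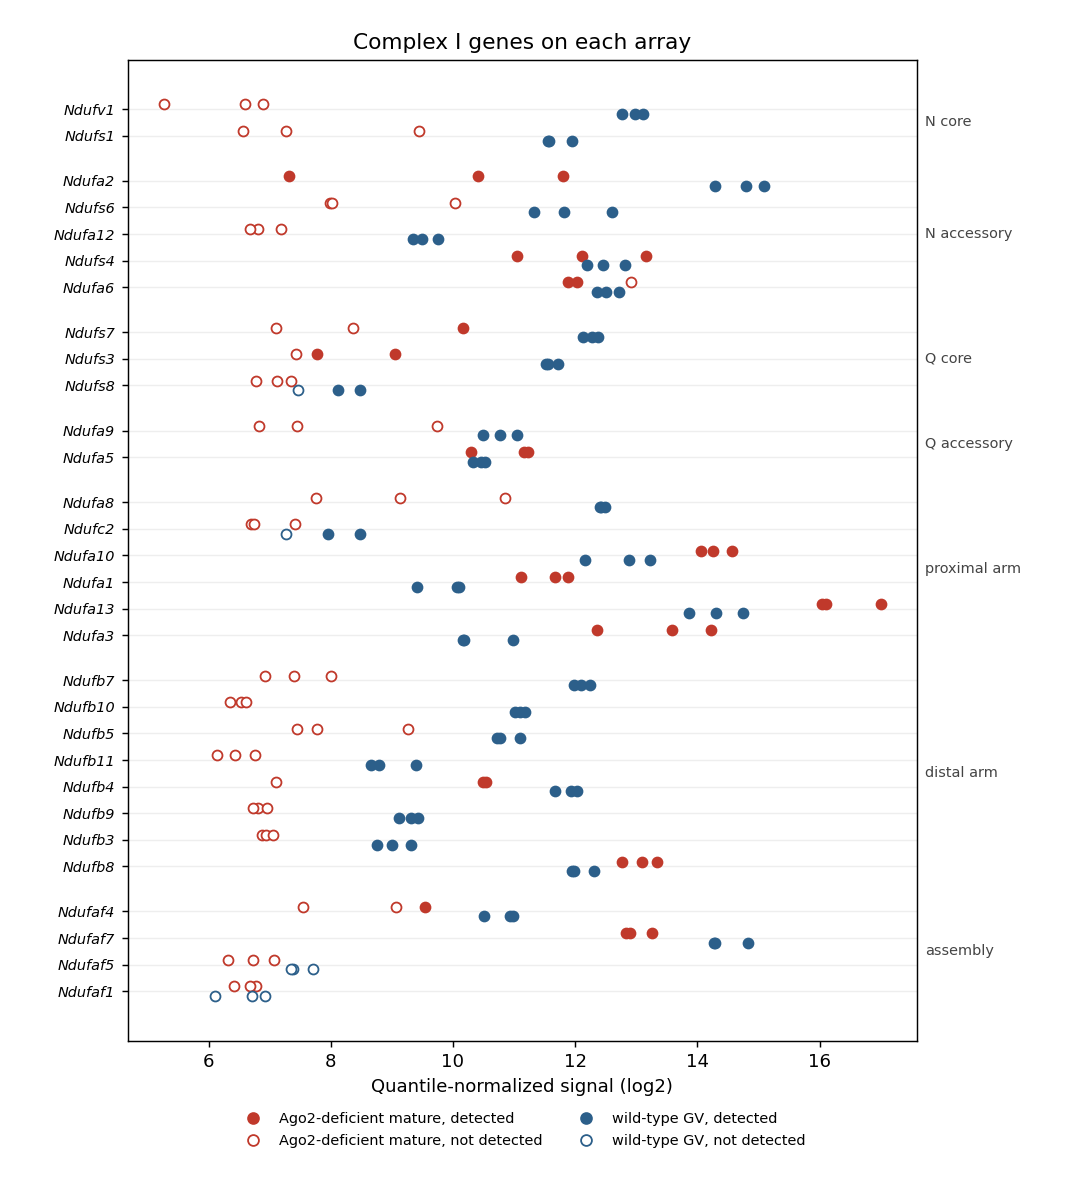
Quantile-normalized log2 signal (x axis) of each of the 30 complex I genes on each array, grouped by role. For each gene the 3 Ago2-deficient mature oocytes (red) are drawn above the 3 wild-type GV oocytes (blue), filled where detected and open where not; most red points outside the proximal arm are open and left of the blue ones.

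Both tested genes of the N module core fell. Ndufv1, which binds NADH and its flavin, read 6.89, 6.59 and 5.27 in Ago2-deficient oocytes and 13.10, 12.77 and 12.97 in GV oocytes. Ndufs1, the large subunit that carries several iron-sulfur clusters, read 6.56, 9.44 and 7.27 in Ago2-deficient oocytes and 11.95, 11.56 and 11.57 in GV oocytes. Neither gene was detected in any Ago2-deficient oocyte, both were detected in all 3 GV oocytes, and the groups were wide apart. Where a gene was not detected in a whole group, its fold is a bound on the quantile-normalized scale, which other scalings move, set on each array against the higher of its own signal and the lowest signal of any detected probe. Such a bound makes no allowance for the spread between oocytes. For the tested members other than Ndufv1 it equals the fitted fold. Ndufv1 was at least 81.8-fold lower (fitted difference -6.70, SE 0.49, adjusted p = 0.00016). Ndufs1 was at least 15.3-fold lower (fitted difference -3.94, SE 0.74, adjusted p = 0.0037), or at least 10.1-fold without Ago2-deficient replicate 1 and at least 27.4-fold without Ago2-deficient replicate 2, which held its highest value. Cyclic loess gave smaller fitted differences, -4.49 for Ndufv1 and -1.91 for Ndufs1. Ndufv2 and Ndufv3 of the same module are not analysed here.

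The 5 accessory subunits of the N module split. Ndufa2, with a thioredoxin-like fold, read 7.31, 10.40 and 11.81 in Ago2-deficient oocytes and 15.10, 14.80 and 14.30 in GV oocytes. It was detected in all 6 oocytes, and its highest Ago2-deficient value still lay below the lowest GV value. The difference was -4.89 (SE 1.09, adjusted p = 0.0076), with -3.62 without Ago2-deficient replicate 1, the lowest oocyte, and -5.87 without replicate 3, the highest. Ndufs6, a zinc-binding subunit added late in assembly, read 7.99, 8.02 and 10.04 in Ago2-deficient oocytes and 11.82, 12.61 and 11.33 in GV oocytes. It was at least 9.40-fold lower with all 6 oocytes (adjusted p = 0.0055). The bound was 15.0-fold without Ago2-deficient replicate 3. It was 7.39-fold and 7.47-fold without Ago2-deficient replicate 1 or 2, and 7.40-fold without GV replicate 2. In the authors' series-wide copy of the values the cell of GV replicate 2 is empty. With that copy the fitted difference was -2.89 (limma adjusted p = 0.018) instead of -3.23. Ndufa12 gave 6.80, 6.68 and 7.18 in Ago2-deficient oocytes and 9.35, 9.49 and 9.75 in GV oocytes, tight in both groups, and was at least 6.26-fold lower (adjusted p = 0.00068), while its difference after centring was -0.92 and not called.
Ndufs4 and Ndufa6 overlapped between the groups. Ndufs4, needed for a stable N module, read 11.05, 12.11 and 13.15 in Ago2-deficient oocytes and 12.81, 12.45 and 12.19 in GV oocytes, detected in all 6. Its difference was -0.38 (SE 0.57, adjusted p = 0.59), and its sign turned to 0.16 with cyclic loess and to 0.15 without Ago2-deficient replicate 1. Ndufa6, an LYR-motif protein, read 12.91, 11.88 and 12.03 in Ago2-deficient oocytes and 12.71, 12.51 and 12.36 in GV oocytes. It was detected in 2 Ago2-deficient and 3 GV oocytes, Ago2-deficient replicate 1 having the highest signal but a score of 0.01, and differed by -0.25 (SE 0.39, adjusted p = 0.60), or 0.030 with cyclic loess. Both were called lower with unscaled arrays (Ndufs4 -2.45, Ndufa6 -2.59) and with a common median (Ndufs4 -3.56, Ndufa6 -3.69).

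Both tested core subunits of the Q module fell. Ndufs7, which holds the last iron-sulfur cluster before coenzyme Q, read 8.37, 7.11 and 10.17 in Ago2-deficient oocytes and 12.28, 12.37 and 12.12 in GV oocytes. Ndufs3, an early building block of the module, read 7.43, 7.78 and 9.05 in Ago2-deficient oocytes and 11.72, 11.52 and 11.55 in GV oocytes. For both genes the 3 GV oocytes were nearly level and every Ago2-deficient oocyte lay below them. Ndufs7 was detected in 1 Ago2-deficient oocyte and Ndufs3 in 2 of them. The differences were -3.71 for Ndufs7 (SE 0.75, adjusted p = 0.0051) and -3.51 for Ndufs3 (SE 0.48, adjusted p = 0.0011). That of Ndufs7 was -2.99 without Ago2-deficient replicate 2 and -4.52 without replicate 3, its lowest and highest oocytes. Ndufs8, another cluster-bearing core subunit, averaged 7.08 ± 0.29 in Ago2-deficient and 8.02 ± 0.51 in GV oocytes (SD, n = 3 each) and was not tested.
Of the accessory subunits, Ndufa9, a nucleotide-binding protein at the joint of the arms, read 9.74, 7.45 and 6.83 in Ago2-deficient oocytes and 10.78, 10.49 and 11.04 in GV oocytes. It was detected in no Ago2-deficient oocyte and was at least 6.79-fold lower (adjusted p = 0.018), at least 12.4-fold without Ago2-deficient replicate 1 and at least 4.52-fold without replicate 3. Its call was lost without Ago2-deficient replicate 2, GV replicate 1 or GV replicate 3, at differences of -2.48, -2.76 and -2.63. Ndufa5 read 10.30, 11.17 and 11.22 in Ago2-deficient oocytes and 10.33, 10.45 and 10.53 in GV oocytes, detected in all 6 with overlapping groups. It differed by 0.46 (SE 0.37, adjusted p = 0.32), which became -1.14 unscaled, -2.24 with a common median and 1.70, called higher, with cyclic loess.

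In the proximal membrane arm, 4 of 5 tested accessory subunits rose on the quantile-normalized scale, none of which was called with unscaled arrays or a common median. Ndufa3 read 14.22, 13.58 and 12.35 in Ago2-deficient oocytes and 10.19, 10.99 and 10.17 in GV oocytes. Ndufa13, also known as the cell death regulator GRIM-19, read 17.00, 16.10 and 16.04 in Ago2-deficient oocytes and 13.86, 14.75 and 14.30 in GV oocytes. Ndufa1, encoded on the X chromosome and required for assembly of the membrane arm, read 11.67, 11.11 and 11.88 in Ago2-deficient oocytes and 9.42, 10.10 and 10.07 in GV oocytes. Every Ago2-deficient oocyte lay above every GV oocyte for these genes. Ndufa10, with a nucleoside kinase-like fold, read 14.06, 14.26 and 14.57 in Ago2-deficient oocytes and 12.16, 12.87 and 13.22 in GV oocytes, again without overlap. All 4 were detected in all 6 oocytes, so neither group's level was a bound. Of all 2512 probes detected on all 6 arrays, 45.2% were called higher.
The differences were 2.94 for Ndufa3 (SE 0.56, adjusted p = 0.0039), 2.08 for Ndufa13 (SE 0.43, adjusted p = 0.0053), 1.69 for Ndufa1 (SE 0.38, adjusted p = 0.0078) and 1.55 for Ndufa10 (SE 0.39, adjusted p = 0.013). The call of Ndufa10 was also lost when arrays were centred on the probes detected on all 6 of them, at 0.90. No call held without scaling, where Ndufa10 turned to -0.66, and all signs turned with a common median (Ndufa3 -0.071, Ndufa13 -0.80, Ndufa1 -1.0005, Ndufa10 -1.76).
Ndufa8, a cysteine-rich subunit on the intermembrane space side, went the other way. It read 10.86, 7.76 and 9.14 in Ago2-deficient oocytes and 12.48, 12.43 and 12.40 in GV oocytes. It was detected in no Ago2-deficient oocyte and was at least 9.10-fold lower (difference -3.19, SE 0.76, adjusted p = 0.0097), at least 15.9-fold without Ago2-deficient replicate 1 and at least 5.42-fold without replicate 2. Ndufc2 averaged 6.95 ± 0.40 in Ago2-deficient and 7.90 ± 0.61 in GV oocytes (SD, n = 3 each) and was not tested.

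In the distal membrane arm, 6 of 8 accessory subunits fell and none was called higher, where 44.8% of all tested probes were called lower and 17.3% higher. These 6 were detected in no Ago2-deficient oocyte and passed the filter through the GV oocytes alone, so their count is a description. Ndufb7, a cysteine-rich subunit facing the intermembrane space, read 6.92, 7.40 and 8.003 in Ago2-deficient oocytes and 12.24, 12.09 and 11.99 in GV oocytes. Ndufb10, of the same kind, read 6.53, 6.61 and 6.35 in Ago2-deficient oocytes and 11.09, 11.02 and 11.18 in GV oocytes. Both were undetected in all Ago2-deficient oocytes, with narrow and widely separated groups. Ndufb7 was at least 25.4-fold lower (adjusted p = 0.00020) and Ndufb10 at least 24.2-fold lower (adjusted p = 0.00012) on the quantile-normalized scale. Their fitted differences were -4.66 and -4.60 there, and -2.48 and -2.68 with cyclic loess. The bound of Ndufb7 was 21.2-fold without Ago2-deficient replicate 1.
Ndufb5, a single-pass membrane subunit, read 9.26, 7.45 and 7.78 in Ago2-deficient oocytes and 11.10, 10.73 and 10.78 in GV oocytes, at least 6.52-fold lower (adjusted p = 0.0044). Ndufb11, encoded on the X chromosome like Ndufa1, read 6.43, 6.14 and 6.76 in Ago2-deficient oocytes and 8.67, 8.79 and 9.39 in GV oocytes, at least 5.68-fold lower (adjusted p = 0.0013). Neither was detected in an Ago2-deficient oocyte, and the groups did not overlap. Ndufb9, an LYR-motif protein, and Ndufb3 were likewise undetected there. Ndufb9 was at least 5.48-fold lower (adjusted p = 0.00068) and Ndufb3 at least 4.19-fold lower (adjusted p = 0.0016) on the quantile-normalized scale. With the centring described above the fitted differences were -0.61 for Ndufb9, -0.092 for Ndufb3 and -0.53 for Ndufb11, none of them called.
Ndufb4 and Ndufb8 were not called. Ndufb4 read 7.10, 10.50 and 10.55 in Ago2-deficient oocytes and 12.03, 11.93 and 11.67 in GV oocytes. The groups did not overlap, but Ago2-deficient replicate 1, where it was not detected, lay far under both others, and the difference of -2.50 (SE 0.94) had an adjusted p of 0.054 in limma. Without that oocyte the difference was -1.36 (limma adjusted p = 0.0092) and it was called, as it was at -3.06 and -3.08 without replicate 2 or 3. Ndufb8 read 13.10, 13.34 and 12.77 in Ago2-deficient oocytes and 12.30, 11.95 and 11.98 in GV oocytes, detected in all 6 and without overlap. Its difference of 0.99 (SE 0.33, adjusted p = 0.034) missed the fold limit, passed it at 1.14 without Ago2-deficient replicate 3, was called higher at 1.28 with cyclic loess, and turned to -1.29 unscaled and -2.40 with a common median.

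**Figure D3:**
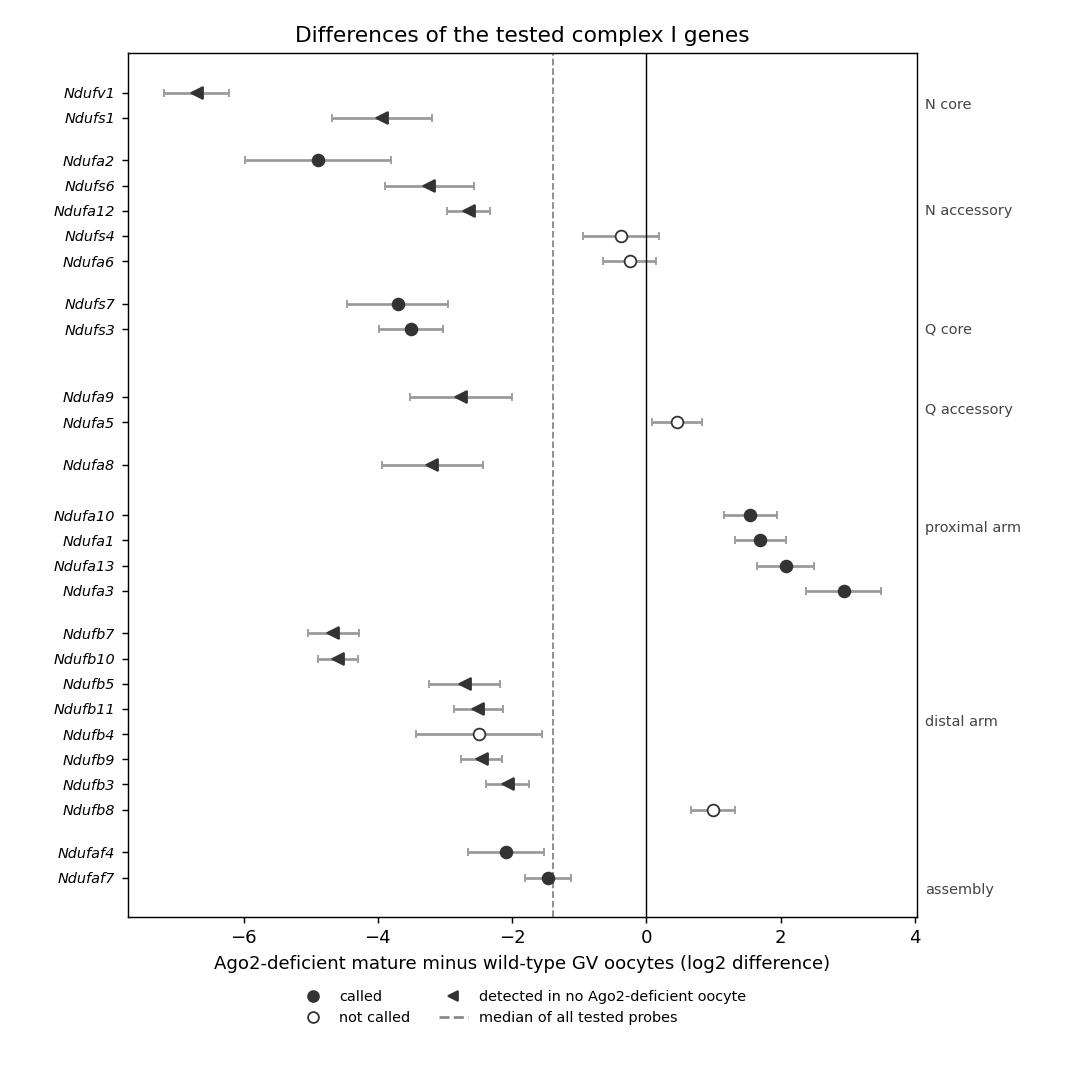
Log2 difference (x axis, Ago2-deficient minus GV) for the 26 tested genes, with the SE as bars. Filled points passed the call, triangles are genes that no Ago2-deficient oocyte showed above the detection limit, so that their difference is open to the left, and the dashed line stands at -1.39, the median over the 8018 probes tested; 4 proximal-arm genes are the called points right of 0, all of which turn below 0 with a common median.

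A gap between the parts of the membrane arm was present under each of 5 scalings. Within each array, the mean log2 signal of the 6 proximal-arm probes minus that of the 8 distal-arm probes was 4.54, 3.45 and 3.62 in Ago2-deficient oocytes and 0.35, 0.96 and 0.56 in GV oocytes. The groups were apart by 3.25, with means of 3.87 ± 0.58 in Ago2-deficient and 0.62 ± 0.31 in GV oocytes (SD, n = 3 each). A constant per array cancels in this contrast, so the unscaled values, the common median and the centring gave one result, 3.04, 3.03 and 3.08 in Ago2-deficient and 0.31, 1.06 and 0.51 in GV oocytes, 2.42 apart. Cyclic loess gave a distance of 2.53. In Ago2-deficient oocytes 6 of the 8 distal-arm probes, and Ndufa8 and Ndufc2 of the proximal arm, were detected on no array, so these distances are set partly against signals not above background. The 2 sets also differ in detection, as 4 of the 6 proximal-arm probes and 1 of the 8 distal-arm ones (Ndufb8, at 0.99) were detected on all 6 arrays. All probes detected on all 6 arrays had a median difference of 0.83, and all tested probes -1.39. Whether the gap goes with the arms or with detection was not tested. The contrast was chosen after the values of the members were known and carries no test.

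**Figure D4:**
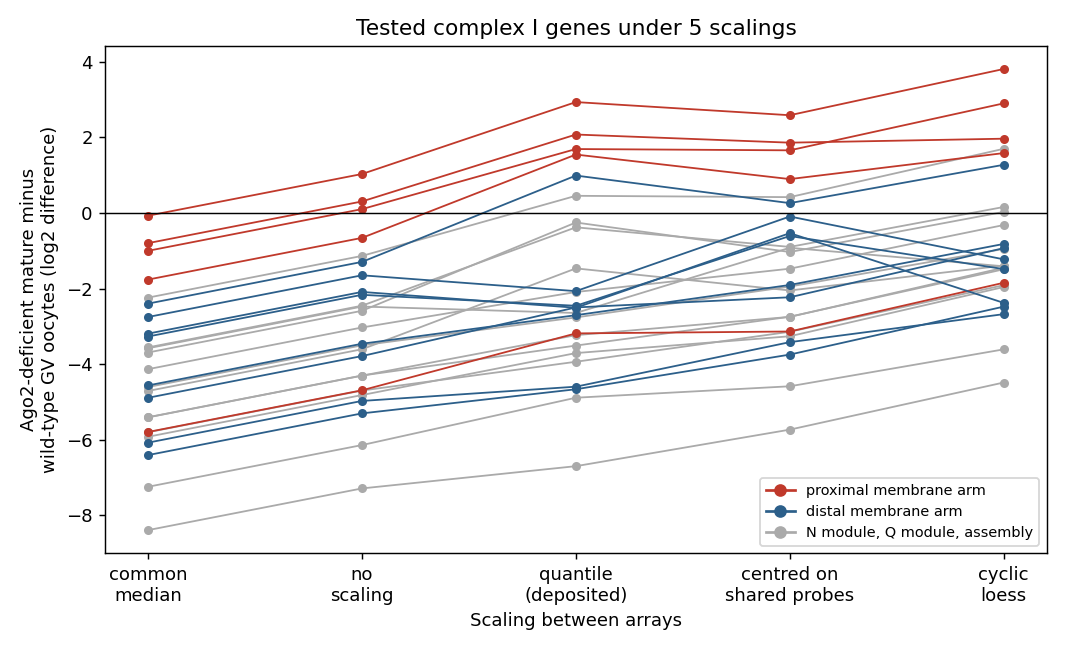
Log2 difference (y axis, Ago2-deficient minus GV) for each of the 26 tested genes under 5 scalings between arrays (x axis). Lines join the values of 1 gene. The red proximal-arm lines, Ndufa8 apart, move across 0 with the scaling but stay above all 8 blue distal-arm lines in each setting. Unscaled, common-median and centred values differ by a constant per array, so the order of genes is the same in them by construction. Of the 8 distal-arm genes, 6 were detected in no Ago2-deficient oocyte.

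Of the 4 Nduf-named assembly factors, both that were tested fell. Ndufaf7, a mitochondrial methyltransferase, read 12.83, 12.90 and 13.26 in Ago2-deficient oocytes and 14.28, 14.27 and 14.83 in GV oocytes, detected in all 6 without overlap. The difference was -1.47 (SE 0.34, adjusted p = 0.0085). Ndufaf4, which acts early in assembly of the Q module, read 9.07, 9.55 and 7.54 in Ago2-deficient oocytes and 10.98, 10.52 and 10.94 in GV oocytes, and was detected in 1 Ago2-deficient oocyte. The difference was -2.09 (SE 0.56, adjusted p = 0.016), with -1.50 without Ago2-deficient replicate 3, and the call was lost without GV replicate 1 or 3, at -2.01 and -2.03. The 9 members detected in all 6 oocytes, whose levels are measured in both groups, were divided into 4 that rose (Ndufa1, Ndufa3, Ndufa10, Ndufa13), 2 that fell (Ndufa2, Ndufaf7) and 3 not called (Ndufa5, Ndufb8, Ndufs4). That is 44.4% higher and 22.2% lower, near the shares of all 2512 such probes, of which 45.2% were called higher and 21.7% lower, 66.9% in either direction. When dim probes were kept in the fit, 3 of the 30 members were called higher and 16 lower, against 5.22% and 9.1% of the 33012 probes. These bases are unlike, as 14348 of the 33012 probes but 2 of the 30 members were detected on no array. Among the 8018 probes tested with the filter 44.8% were called lower.

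Profiles were more alike among GV oocytes, for complex I as for all tested probes. Across the 30 member probes, Pearson correlations were 0.852 to 0.926 between Ago2-deficient oocytes and 0.973 to 0.981 between GV oocytes, and 0.442 to 0.662 between an Ago2-deficient and a GV oocyte. Over all tested probes the ranges were 0.844 to 0.898, 0.965 to 0.973 and 0.510 to 0.585 for the same pairs. These describe probes on shared arrays, with probe brightness in common, and are not replicates. Of the 8018 tested probes, 7765 were detected in every GV oocyte, and 2648 of these in no Ago2-deficient oocyte. The filter thus favours likeness among GV oocytes, and the Ago2-deficient correlations include many signals not above background. The spread among Ago2-deficient oocytes was widest for Ndufa2 (SD 2.30), Ndufb4 (SD 1.98), Ndufa8 (SD 1.55), Ndufs7 (SD 1.54) and Ndufa9 (SD 1.54), while no member had an SD over 0.65 among GV oocytes. Ndufa8 and Ndufa9 were detected in no Ago2-deficient oocyte, Ndufs7 in 1, Ndufb4 in 2 and Ndufa2 in all 3. Apart from Ndufa2, these spreads thus include signals not above background.

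Genes that work with complex I were counted in the same fit, beside the 17.3% of all tested probes called higher, the 44.8% called lower and their median of -1.39. As for the members, many passed the filter through the GV oocytes alone, in which they are high, so their counts and medians are descriptions. Without the filter, the median over all 33012 probes on the array was 0.13. Of 11 further assembly factors on the array, 7 were tested and all 7 fell, with a median difference of -4.21, and 6 were called lower under cyclic loess and under centring. Ecsit, Tmem126b and Sfxn4 were detected in no Ago2-deficient oocyte, Dmac1, Tmem70 and Aifm1 in 1, and only Dmac2 in every oocyte. Over all 11 the median was -2.81, with the untested Acad9 at -0.13, Timmdc1 at 0.14, Tmem186 at 0.96 and Foxred1 at 1.02. Sfxn4, a sideroflexin needed for complex I assembly in mammals, was at least 88.1-fold lower (adjusted p = 0.000229) on the quantile-normalized scale. Its fitted difference was -6.46 there and -4.44 with cyclic loess. Dmac1, a factor for the distal membrane arm detected in 1 Ago2-deficient oocyte, differed by -5.16 (adjusted p = 0.0071), with -4.27 without Ago2-deficient replicate 1 and -6.55 without replicate 3.
Of 28 tested probes for subunits of complexes II to V, 4 were called higher, 12 lower and 12 not called, at a median of -1.70, near the shares of all probes. Sdhb, the iron-sulfur subunit of complex II, differed by -8.46 (adjusted p = 0.000142) and Atp5o, of the ATP synthase stalk, by -6.72 (adjusted p = 0.000394). Each was detected in 1 of 3 Ago2-deficient oocytes, so these sizes are set mostly against signals not above background, and without Ago2-deficient replicate 2 they were -9.06 for Sdhb and -7.52 for Atp5o. With the authors' series-wide copy of the values, in which some cells are empty, Sdhb differed by -8.01. Uqcrq of complex III, the brightest not called and detected in all 6 oocytes, differed by -1.03 (adjusted p = 0.054). It was called lower unscaled (-3.11), with a common median (-4.21), after centring (-1.55), at a score of at least 5 (adjusted p = 0.049), with the test kept to probes that every oocyte detected (adjusted p = 0.020), and without Ago2-deficient replicate 1 (-1.19) or GV replicate 1 (-1.29). The 4 called higher, named after their values were seen, were Cox8a (2.47), Cox7c (2.14) and Cox6b1 (1.25) of complex IV and Uqcr11 (1.34) of complex III, and with a common median all 4 turned below 0 (Cox8a -0.46, Cox7c -0.52, Cox6b1 -2.09, Uqcr11 -1.78). Without scaling Cox6b1 was at -0.98 and Uqcr11 at -0.68, and the list then had 0 probes higher and 21 lower, with a common median 0 and 24. After centring Cox6b1 was at 0.57 and Uqcr11 at 0.88, neither of them called. Uqcr11 lost its call without any single oocyte other than Ago2-deficient replicate 3, at 1.05 to 1.53, and Cox6b1 without GV replicate 3, at 1.11.

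Of 8 tested genes for iron-sulfur cluster assembly, 1 was called higher and 4 lower, at a median of -2.04, near the shares of all probes. Over all 10 on the array the median was -0.43. Glrx5, a glutaredoxin that passes on new clusters, differed by -6.43 (adjusted p = 0.0015), or -5.50 and -7.52 without Ago2-deficient replicate 1 or 3. Bola3, which helps deliver clusters to late targets, differed by 3.84 (adjusted p = 0.000419), but by 0.82 (adjusted p = 0.165, limma) with a common median, where the list had 0 higher. Nfs1, the cysteine desulfurase, differed by -0.81 (adjusted p = 0.34) and by -0.016 without Ago2-deficient replicate 1. It was called lower unscaled (-2.66) and with a common median (-3.76), while cyclic loess gave 0.084.
Of 4 tested genes for coenzyme Q synthesis, 3 fell, Coq9 being at least 22.4-fold lower (adjusted p = 0.000235) and Coq4 at least 19.5-fold lower (adjusted p = 0.000571). Their fitted differences of -4.71 and -4.29 became -3.15 and -2.22 with cyclic loess. Coq8b, detected in no Ago2-deficient oocyte, had a fitted difference of 0.44 (adjusted p = 0.72), -0.27 unscaled, -1.37 with a common median, 1.29 after centring and 1.84, called higher, with cyclic loess. It was at -0.38 without Ago2-deficient replicate 2 and called higher at 1.68 without replicate 3.
Of the other enzymes that feed coenzyme Q, 2 were tested. Gpd2, the mitochondrial glycerol-3-phosphate dehydrogenase, differed by 4.64 (adjusted p = 0.0099), by 5.48 and 3.32 without GV replicate 1 or 2, and by 2.20, no longer called, with a common median (adjusted p = 0.077). In GV replicate 2 it read 5.94 and was not detected. With the authors' series-wide copy of the values, in which some cells are empty, Gpd2 differed by 3.32. Dhodh, of pyrimidine synthesis, was at least 22.2-fold lower (adjusted p = 0.000189), with a fitted difference of -4.66, or -3.08 with cyclic loess.
Of 6 tested genes for maintenance and transcription of mitochondrial DNA, 3 fell, at a median of -1.96. Over all 15 probes of this list on the array the median was 0.075. Tfb1m, an rRNA methyltransferase of mitochondria, was at least 11.0-fold lower (adjusted p = 0.000380), with a fitted difference of -3.46, or -1.90 with cyclic loess. Polrmt, the mitochondrial RNA polymerase, differed by -2.28 (adjusted p = 0.018), lost its call without GV replicate 1 (-2.29) or 3 (-2.11) and was at -2.89 and -1.69 without Ago2-deficient replicate 1 or 3. Tfb2m, its initiation factor, differed by -2.11 (adjusted p = 0.083). It was called lower unscaled (-3.15), with a common median (-4.25), after centring (-1.59), and at -1.02 and -2.83 without Ago2-deficient replicate 1 or 3. The core subunits encoded by mitochondrial DNA are not analysed here.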

How the data were processed

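Single oocytes were lysed and their cDNA amplified and brought to a common concentration by the authors, so signals are shares of the RNA in a cell and not amounts per oocyte. Digoxigenin-labelled cRNA was hybridized to Applied Biosystems mouse arrays read by chemiluminescence. The version of the software that read the signals is not given in the sources here. The deposited files hold a linear signal intensity per probe, not scaled between arrays, a deposited signal-to-noise score, and other values, flag codes, whose meaning the authors did not describe. The authors also deposited log2 values, quantile normalized over the 6 arrays, which were used as they stand. The deposited series-wide copy leaves 2675 of these log2 cells empty, 1 of them a member's (Ndufs6, GV replicate 2).

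Probes were named from the array's annotation, in which 14411 probes have 1 symbol, 247 several and 18354 none. All 30 member identifiers were found in the RefSeq gene table, with 0 symbols changed. Probes with a score of at least 3 on all arrays of a group were fitted with limma 3.58.1 (lmFit, eBayes) in R 4.3.3. Benjamini-Hochberg adjustment of the two-sided p-values ran over all 8018 probes tested, as for all adjusted p-values in the text. Without a fold limit 22 members passed, and 23 at an unadjusted p under 0.05. Detection counts were compared by an exact permutation test over arrays, and plots were drawn with matplotlib 3.10.9 in Python 3.11.15. Start regions are RefSeq's, build GRCm38.p6. The number of arrays limits the precision.

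The members and gene lists were chosen with earlier results of these data known. Values on every array are given for tested core subunits and, in each other role group, for up to 4 called members with the largest difference and the 2 brightest not called. In each other list up to 2 called genes and 1 not called are named. Alternatives covered the scaling between arrays, the detection filter, the thresholds, the variance model, the replicate block and leaving out each oocyte, and they were run for the other lists after seeing the data.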

Additional observations from a re-analysis of the deposited data

How the results depend on the processing

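Against 4 members higher, 17 lower and a median difference of -2.50, no scaling gave 0 higher and a median of -3.24, a common median 0 and -4.35, cyclic loess a median of -1.31, and centring on probes detected on all 6 arrays -1.69. Of all tested probes, 17.3% were called higher in the main setting, 7.7% without scaling and 3.97% with a common median. A fold limit of 4 gave 2 higher, where 12.2% of all tested probes were called higher. Keeping only probes detected on all 6 arrays left 9 members, with 2 lower and a median of 0.99, turned in sign. The median of all 2512 such probes was 0.83, and 21.7% of them were called lower. At a score of at least 5 the mean number of members detected per array differed by -18.0 instead of -15.7. Signs turned without scaling for Ndufa10 (-0.66), Ndufa5 (-1.14), Ndufb8 (-1.29), Uqcr11 (-0.68), Cox6b1 (-0.98) and Coq8b (-0.27). With a common median they turned for Ndufa1 (-1.0005), Ndufa10 (-1.76), Ndufa13 (-0.80), Ndufa3 (-0.071), Ndufa5 (-2.24), Ndufb8 (-2.40), Uqcr11 (-1.78), Cox6b1 (-2.09), Cox7c (-0.52), Cox8a (-0.46) and Coq8b (-1.37), and with cyclic loess for Ndufa6 (0.030), Ndufs4 (0.16) and Nfs1 (0.084). Leaving out 1 oocyte at a time gave 4 to 5 higher, 15 to 18 lower, a median of -2.57 to -2.33 and a difference in members detected of -16.3 to -14.3, with Ndufs4 between -0.90 and 0.15 and Coq8b between -0.38 and 1.68. With the replicate block the counts were 4 higher and 17 lower, where 16.3% of all tested probes were called higher and 42.8% lower. Among complexes II to V Uqcr11 lost its call with this block (adjusted p = 0.052, limma). By their labels same-numbered oocytes share only a number, and their deviations did not go together (r = -0.0487, 0.0275 and -0.0339). These correlations cannot tell whether such oocytes shared an animal or a batch. Calls on members with no detected signal in Ago2-deficient oocytes rest on limma fits to signals not above background there, and their folds are bounds. The cause of the other shifts was not tested.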

Other observations

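A probe for Ndufs5-ps, a pseudogene that the choice of members left out, read 11.46, 11.50 and 11.91 in Ago2-deficient oocytes and 12.09, 12.14 and 11.85 in GV oocytes. The groups overlapped, and the difference was -0.40 (limma adjusted p = 0.30). Whether transcripts of the parent gene Ndufs5 bind this probe was not tested.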
